A study of Mus musculus with 10 samples.

Results

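Wild-type fibroblasts cultured from mouse embryos were compared after 4 days in 5 µM of 4-hydroxytamoxifen and without treatment. The comparison used 4 of the 10 arrays of the series, 2 for each of the groups named WT 5 µM and WT untreated. The other 6 arrays came from a line with a conditional knockout of Dicer, here called CDKO, with 2 arrays each for untreated cells and for cells after 4 days at 1 µM and at 5 µM. All cells grew in DMEM with 10% serum, and total RNA was taken with Trizol. The labels name no strain, passage, sex or carrier of the drug, and do not say which Cre construct the CDKO line carries or whether the WT cells carry one. Nor is it stated if replicate arrays stem from separate cultures, and p-values therefore measure only the spread between these arrays, which may be technical. A description field calls all samples conditional knockout cells but 4 titles say WT, and the titles were followed.

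Every probe set that is no array control and has a mean log2 value of 4 or more in either WT group was kept, which gave 20044 of 45037 probe sets. The values are the authors' log2 intensities, on which 4 lies near background. Just inside that limit the higher group mean was 4.0005 and just outside it was 3.9998. For each gene with a single symbol the probe set with the highest mean over all arrays stands for the gene, so that 10440 genes of 18193 measured were tested. Differences are given as WT 5 µM minus WT untreated on the log2 scale, where 1 is a doubling.

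4-Hydroxytamoxifen is an active metabolite of tamoxifen that binds estrogen receptors. In genetics it is used to move a Cre recombinase fused to such a receptor into the nucleus, and cells without the fusion protein serve as controls for the drug itself. Tamoxifen and its metabolites are also known to bind a microsomal site formed by the sterol isomerase Ebp and the reductase Dhcr7, enzymes late in cholesterol synthesis, and as cationic amphiphilic compounds they gather in lysosomes. Sterol-synthesis genes are controlled by SREBP-2, a transcription factor that is released from the endoplasmic reticulum when membrane sterol is low.

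The WT arrays agreed closely within a group, with a median SD between replicates of 0.0995 in untreated and 0.0718 in treated cells, against 0.285 to 0.344 in the CDKO groups (log2, n = 2 arrays each). The 18S ribosomal RNA control read 11.64 and 11.21 on the untreated WT arrays and 6.16 and 5.98 on the treated WT arrays. The Gapdh control, read as its 3′ minus its 5′ probe set, gave 0.89 and 0.67 on the untreated and -0.10 and -0.10 on the treated arrays. Both controls were higher in untreated than in treated WT cells with no overlap, so drug and these RNA controls cannot be told apart within the WT line. A gap of the same kind separated the replicates of CDKO cells at 1 µM, which carry the same label: their 18S control read 5.21 and 10.16 and their Gapdh difference -0.10 and 1.58. Replicate 1 minus replicate 2 of that group is therefore given beside the results as the 1 µM replicate difference. It shares no array with the WT difference, but the test pools its spread, so it bears on which genes passed. Across the 10440 genes tested it correlated with the WT difference at r = 0.567. Its median was -0.27 over those genes, and its part in the WT differences was not tested. CDKO 1 µM replicate 2 lay nearest to WT untreated replicate 1 (r = 0.94773 over probe sets, against 0.93039 with its own replicate). Other CDKO arrays lay nearest to an array of another group: untreated replicate 2 to replicate 1 at 1 µM (r = 0.99274 over probe sets, against 0.95049 with its own replicate), and 5 µM replicate 2 to that untreated array (r = 0.98232). The 18S control read 6.88 and 8.44 on the untreated CDKO arrays and 5.51 and 5.83 at 5 µM, again lower with no overlap, and its part in the CDKO differences below was not tested.

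**Figure D1:**
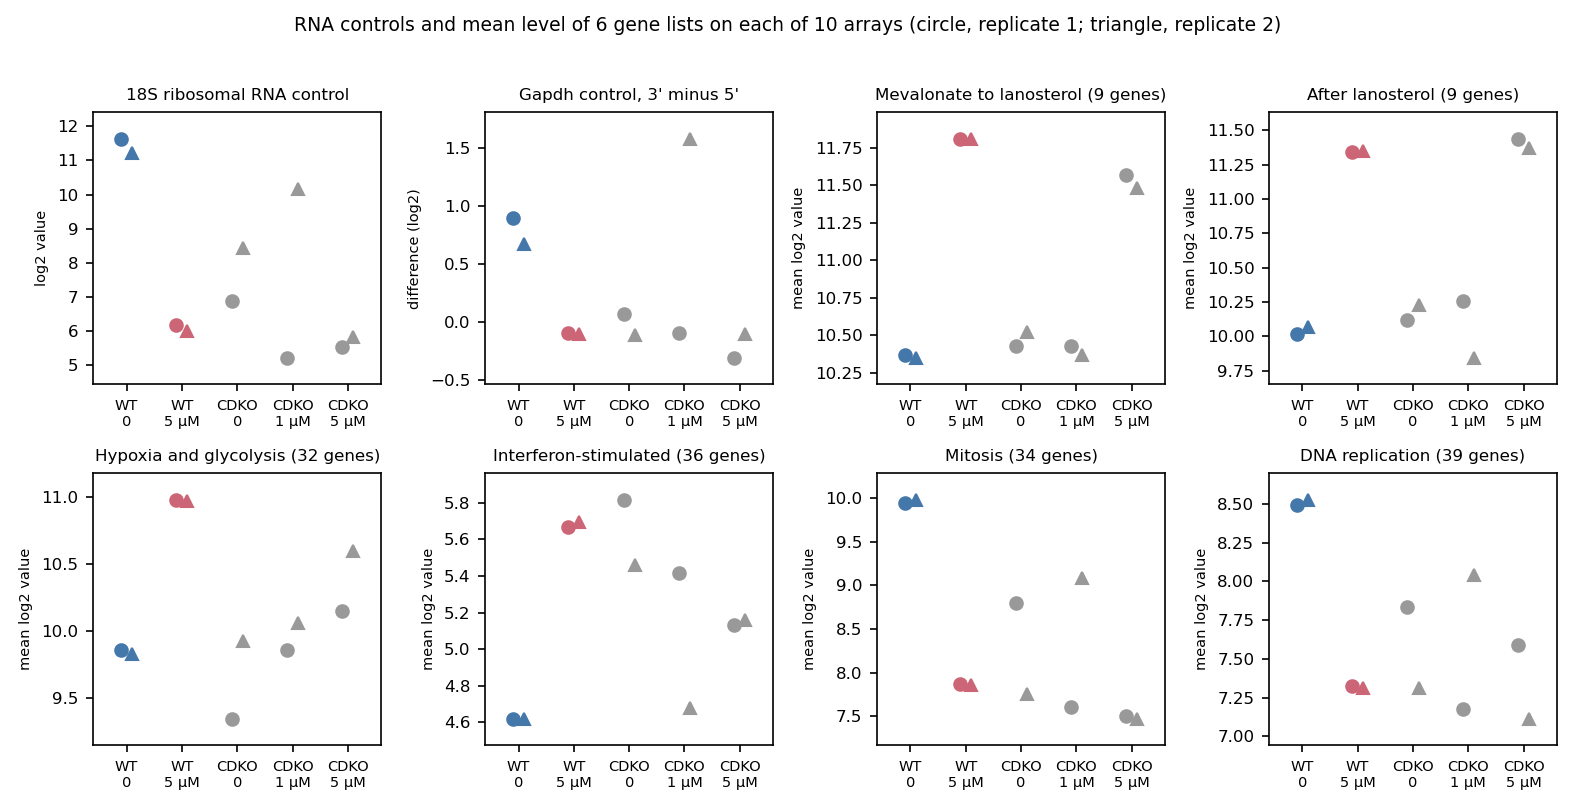
Log2 value of the 18S control, the Gapdh 3′ minus 5′ difference (log2) and the mean log2 value of 6 gene lists on each of the 10 arrays, by line and dose (0, untreated). Each point is 1 array, blue for untreated and red for treated WT cells and grey for CDKO cells. The WT groups part in every panel. Replicate 2 of the CDKO cells at 1 µM lies with the untreated WT arrays for the 18S control (10.16 against 11.21 and 11.64), and the 2 mean levels of the mitosis list in that CDKO group are 7.60 and 9.08.

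In treated WT cells 391 genes were higher (3.75% of those tested) and 536 were lower (5.13%) by limma at a Benjamini-Hochberg adjusted p under 0.05. These 2 shares are the background for every list count below. The smallest absolute difference among them was 0.69 for higher and 0.73 for lower genes, and the median absolute difference was 1.505 and 1.628. The values of the 2 WT groups did not overlap in 83.6% of the probe sets tested, and 44.3% of the genes tested had a positive difference. Named genes past the test were picked on these same arrays, so a gap between their 2 WT groups is no added support. The median difference was -0.10 over the genes tested and 0.03 over all genes measured. The test pools its spread with the more scattered CDKO arrays. On the 4 WT arrays alone 2347 genes were higher and 3516 lower, among them 390 of the 391 and all 536. Leaving out 1 WT array left between 11 and 39 higher and between 18 and 53 lower genes, and with the 18S control as a covariate 2 genes were higher and 8 lower.

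The largest changes fell in several kinds of genes. Among genes measured in both groups, Crct1, which lies in the gene cluster of the skin's cornified layer, read 5.95 and 6.29 untreated and 11.87 and 11.86 treated, a rise of 5.75 ± 0.94 (adjusted p = 0.0157). Lce1f, another cornified envelope gene, rose by 3.52, and Penk, which encodes the enkephalin precursor, by 3.71. Cd55, which shields cells from complement, rose by 3.63 and Rraga, a GTPase that brings amino acid signals to mTORC1 at the lysosome, by 3.25. Ndrg2 read 4.04 and 3.73 against 7.48 and 7.52 and, with Aldoc, made up the 2 genes called higher with the 18S control as a covariate. Among genes that fell, Crispld2 read 8.76 and 8.46 against 4.24 and 4.17, and Adamts9, a matrix protease, fell by 4.15. Mex3b, an RNA-binding protein (-3.93), Car3, a carbonic anhydrase (-3.88), and Clspn, a protein of the replication checkpoint (-3.27), also fell. The 1 µM replicate difference had the opposite sign for Car3 (2.16), Ndrg2 (-0.30) and Aldoc (-1.20). Among the genes that rose it had the same sign for Crct1 (1.93), Lce1f (0.35), Penk (2.25), Cd55 (1.505) and Rraga (0.98). Among those that fell it had the same sign for Crispld2 (-2.56), Adamts9 (-1.64), Mex3b (-1.07) and Clspn (-2.24).

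**Figure D2:**
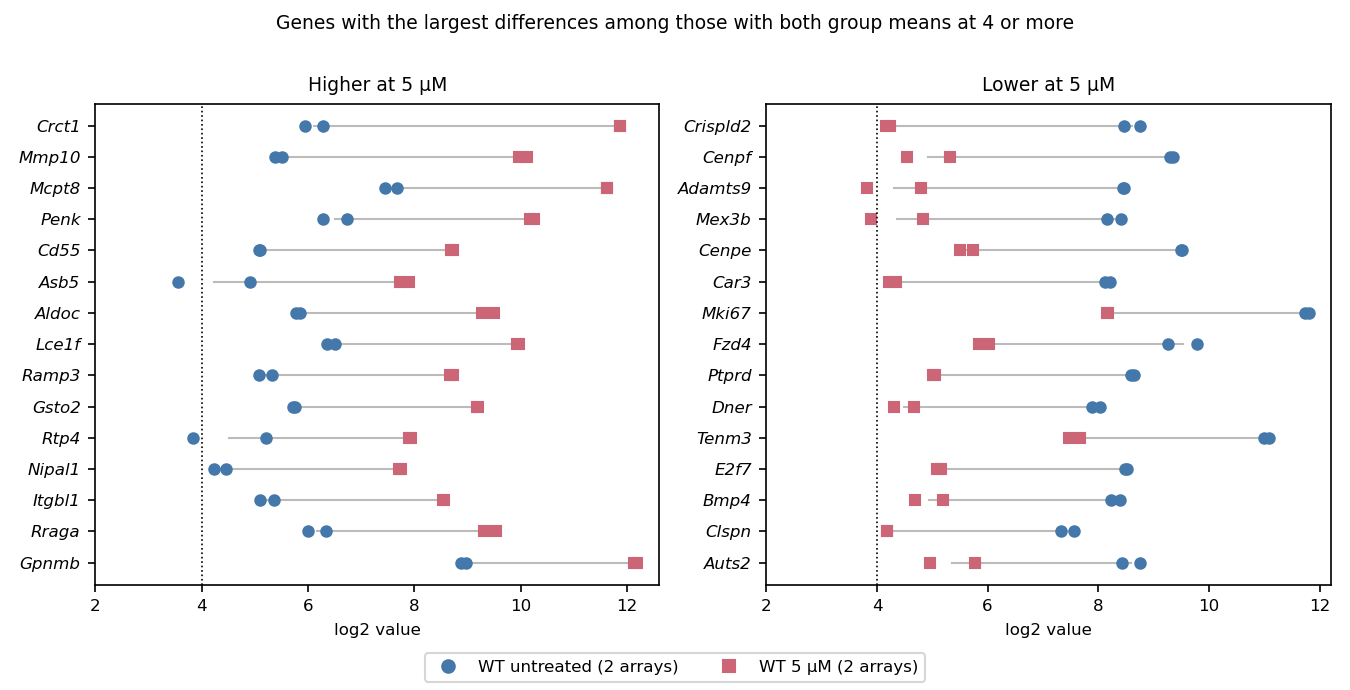
Log2 values of the 15 genes with the largest positive (left) and negative (right) differences among those past the test with both WT group means at 4 or more. Blue circles are the 2 untreated and red squares the 2 treated WT arrays, grey lines join the group means, and the dotted line marks a log2 value of 4. In all 30 genes the 2 groups are apart, for example Crct1 at 5.95 and 6.29 against 11.87 and 11.86.

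Most enzymes that make lanosterol from acetyl-CoA by way of mevalonate were higher in treated WT cells. Of 9 measured members 7 rose and none fell, against 3.75% of all genes tested, and the median of the 9 was 1.42. Idi1, the isomerase of isopentenyl diphosphate, read 11.51 and 11.56 untreated and 13.31 and 13.30 treated, a difference of 1.77 ± 0.21 (SE; limma adjusted p = 0.0058) or 3.41-fold. Mvd, which makes isopentenyl diphosphate from its mevalonate precursor, read 8.59 and 8.56 against 10.39 and 10.40. Lss, which closes the sterol ring system, read 9.89 and 9.90 against 11.48 and 11.43. For all 3 enzymes, named because they passed the test, the treated arrays lay above the untreated ones by more than the gap between replicates. Fdps, which builds farnesyl diphosphate, rose by 2.30 ± 0.48, with a 1 µM replicate difference of 1.57. Mvk, the mevalonate kinase, rose by 1.42, Fdft1, which joins 2 farnesyl units into squalene, by 1.14, and the squalene epoxidase Sqle by 1.10. Hmgcs1, the synthase that forms HMG-CoA, differed by 0.71 ± 0.24 (adjusted p = 0.0936), and Pmvk, which adds the next phosphate after Mvk, by 1.25 ± 0.50 (adjusted p = 0.137). Without 1 WT array 0 to 3 members passed.

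Promoters of 3 rising mevalonate genes are shown because all 6 members with a RefSeq promoter hold an inverted CCAAT box (ATTGG on either strand), the site of NF-Y, a factor that is known to act with SREBP. The same letters stand in 41.1% of 27025 genes, counting promoters of 300 bases. The sterol regulatory element written as TCACNCCAC on either strand stood in 1 of the 6, in none of the 4 that rose, and in 1.44% of all genes. It stood in 0 of 9 promoters of the later sterol enzymes and in 0 of 12 of the genes that sense or import sterol. The CCAAT letters also stood in 23 of 28 promoters of the mitosis genes described below, 15 of which fell. The stretches below run 5′ to 3′ on the gene's strand and end before the start of transcription, with the ATTGG or CCAAT letters in capitals. They come from RefSeq on GRCm38.p6, Idi1 at chr13:8885531-8885605 on the + strand, Lss at chr10:76531513-76531577 on the + strand and Mvd at chr8:122443423-122443512 on the - strand.
Idi1: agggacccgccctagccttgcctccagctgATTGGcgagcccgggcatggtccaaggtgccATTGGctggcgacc
Lss: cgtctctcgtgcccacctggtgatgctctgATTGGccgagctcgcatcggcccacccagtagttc
Mvd: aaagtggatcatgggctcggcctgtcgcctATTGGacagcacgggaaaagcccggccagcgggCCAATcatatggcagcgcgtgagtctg

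Of the enzymes that turn lanosterol into cholesterol 6 of 9 measured members were also higher, none was lower and the list median was 1.70. Tm7sf2, a sterol C14 reductase, read 8.0 and 7.97 untreated and 10.34 and 10.31 treated, a rise of 2.34 ± 0.33 (adjusted p = 0.0103, 5.06-fold). Nsdhl, which takes part in removing the C4 methyl groups, read 10.45 and 10.62 against 12.89 and 12.90. Sc5d, a sterol desaturase, rose by 1.82, Msmo1, a C4 methyl oxidase, by 1.80, Cyp51, the lanosterol demethylase, by 1.70 and Hsd17b7 by 1.09. Ebp, part of the binding site named above, read 9.87 and 9.97 against 11.05 and 10.99 and did not pass (1.10 ± 0.29, adjusted p = 0.0531). Dhcr7, the other part, differed by 0.65 ± 0.43 (adjusted p = 0.336). Lbr, which holds a sterol reductase domain but is also a receptor of the inner nuclear membrane, differed by -1.17 ± 0.35 (adjusted p = 0.0746) and was the 1 member with a negative difference. Without 1 WT array 0 or 1 members passed, and with no filter on level 3 did.

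Genes that sense or import sterol moved less than the enzymes. Of 14 measured members 3 rose: Tmem97, a sterol-binding membrane protein (1.45 ± 0.29, adjusted p = 0.0269), Srebf2, which encodes SREBP-2 (1.15), and Insig2, which holds the SREBP complex in the endoplasmic reticulum (1.04). The list median was 0.09. Of 18 fatty acid genes 2 rose, the desaturases Scd1 (1.25) and Fads2 (1.30). Over all genes tested 3.75% were called higher. Abca1, which exports cholesterol to apolipoproteins and is a classic target of the sterol receptor LXR, read 9.92 and 10.11 untreated and 4.05 and 3.66 treated. It fell by 6.16 ± 0.82 (adjusted p = 0.00887), to a mean under 4, and the difference between the lines was -3.48 ± 1.16 (adjusted p = 0.297). Its other 2 probe sets stayed under 4 on every array. Plin2, the lipid droplet coat protein, rose by 1.496, and none of the other 10 measured members of the LXR list passed, 2 of them under 4 in both WT groups. Whichever WT array was left out, none of the members named here passed.

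The sterol enzymes had positive differences at the same dose in CDKO cells, on arrays that enter the WT test only through its spread. Their median was 0.995 for the mevalonate list and 1.36 for the later enzymes, and all 18 members had a positive CDKO difference. The mean level of the mevalonate list was 10.43 and 10.52 on the untreated CDKO arrays, 10.43 and 10.37 at 1 µM and 11.57 and 11.48 at 5 µM. The difference between the lines ran from -1.20 ± 0.50 for Lbr to 1.31 ± 0.68 for Fdps, with 0.82 ± 0.30 for Mvd and 0.06 ± 0.29 for Idi1. No member of either list passed the test of that difference, which does not show that the lines responded alike. Between the 1 µM replicates the medians were 0.13 and 0.53 for these lists.

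**Figure D3:**
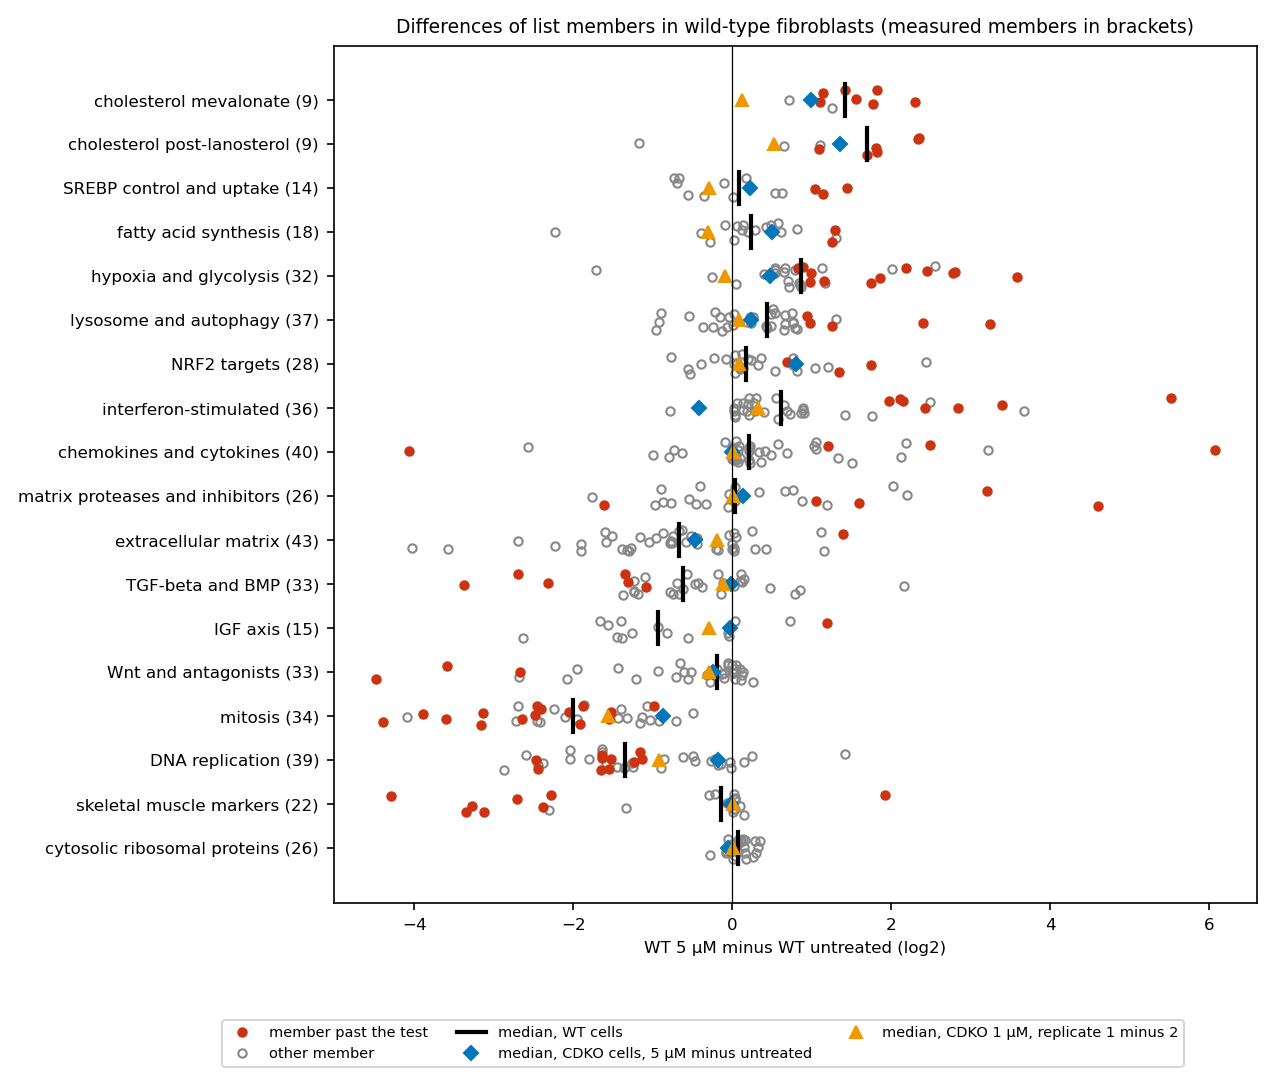
Difference between treated and untreated WT cells (log2) for each measured member of 18 gene lists. Filled red points passed the test, open grey points did not, and black bars are list medians in WT cells. Blue diamonds are the medians of the same members in CDKO cells at 5 µM against untreated, and orange triangles the medians of replicate 1 minus 2 in CDKO cells at 1 µM. The sterol lists lie right of 0 by the bar and the diamond (1.42 and 0.995 for the mevalonate list), while the mitosis list lies left of 0 by all 3 marks (-2.00, -0.87 and -1.57).

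Genes of hypoxia and glycolysis formed the next group. Of 32 measured members 12 rose, against 3.75% of all genes tested, and none fell. A positive difference was seen in 30, and the median was 0.86. Aldoc, an aldolase, read 5.78 and 5.84 untreated and 9.50 and 9.28 treated, a rise of 3.58 ± 0.39 (adjusted p = 0.00476, 11.9-fold). Bnip3, a mitochondrial protein that takes part in mitophagy, read 10.26 and 10.12 against 13.00 and 12.94. Pfkfb3, which makes the activator of phosphofructokinase, read 7.0 and 6.79 against 8.99 and 9.17. In each of these, named because it passed the test, the treated arrays stood clear of the untreated arrays. Ankrd37 rose by 2.80, the enolase Eno2 by 2.45, the peptide hormone gene Adm by 1.86 and Pdk1, which keeps pyruvate out of the citric acid cycle, by 1.74. Tpi1, Pgam1, Higd1a, Ero1a and Ddit4 rose by 0.83 to 1.16. Egln3, a hydroxylase that marks HIF for degradation, differed by 2.55 ± 0.70 and did not pass (adjusted p = 0.0592). The 1 µM replicate difference had a median of -0.08 and was -1.20 for Aldoc, opposite in sign to the WT difference. In CDKO cells at 5 µM the median was 0.48, with 3.005 for Aldoc, and no member passed the test of the difference between the lines. Without WT untreated replicate 1 or 2, 3 and 1 members passed, and without either treated WT array 0 did.

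The hypoxia response element written TACGTG on either strand stood in the promoters of 8 of 30 members with a RefSeq entry and of 3.67% of all genes. It is the core bound by HIF, the oxygen-regulated transcription factor, and 2 rising genes that hold it upstream of the start are shown with those letters in capitals. Pgam1, a mutase of glycolysis, lies at chr19:41911726-41911791 on the + strand and Ankrd37 at chr8:45999851-45999887 on the - strand (GRCm38.p6).
Pgam1: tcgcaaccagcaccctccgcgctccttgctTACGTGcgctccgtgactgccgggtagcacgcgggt
Ankrd37: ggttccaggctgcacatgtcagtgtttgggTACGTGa

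Of the mitosis genes 15 of 34 were lower in treated WT cells. All 34 measured members had a negative difference and the median was -2.00, against 5.13% of all genes tested called lower. Mki67, a protein of the chromosome surface in dividing cells, read 11.80 and 11.74 untreated and 8.18 and 8.15 treated, a fall of 3.61 ± 0.82 (adjusted p = 0.0376, 12.2-fold). Cenpf, a kinetochore protein, read 9.29 and 9.35 against 4.54 and 5.32. Kif11, the motor that pushes spindle poles apart, read 7.72 and 7.81 against 4.52 and 4.69. In these genes, named because they passed the test, no value of a treated array reached an untreated one. The kinases Plk1 (-2.41), Aurkb (-1.88) and Aurka (-1.55) fell, as did the checkpoint kinase Bub1b (-2.45), Top2a, which untangles DNA (-2.48), and the cyclin gene Ccna2 (-1.92). Cenpe, Kif2c, Kif23, Cdc20, Pttg1 and Ube2c also fell, with differences from -3.89 to -0.99. The 1 µM replicate difference had the same sign in 32 of the 34 members, with a median of -1.57 and -2.64 for Mki67. In CDKO cells at 5 µM the median was -0.87, but the mean level of the list was 8.79 and 7.75 on the untreated CDKO arrays against 7.51 and 7.47, so the untreated replicates lay further apart than the second of them from the treated arrays. With each WT array left out in turn, 0 of the 34 passed, without either CDKO 5 µM array 8 did and without either CDKO 1 µM array 29. In bulk samples, fewer dividing cells and less RNA per cell cannot be told apart.

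Genes that copy DNA had a median of -1.35, with 10 of 39 members lower and none higher. Over all genes tested 5.13% were called lower. Pola1, the catalytic subunit of the polymerase that primes synthesis, read 7.41 and 8.06 untreated and 5.16 and 5.37 treated. Cdc6, which loads the replicative helicase, read 7.09 and 7.29 against 5.03 and 4.47. Mcm7, a helicase subunit, read 12.01 and 11.93 against 10.42 and 10.23. The 2 groups were apart in all 3 genes, which were named because they passed the test. Cdc7 and its partner Dbf4, the kinase that fires origins, fell (-1.64 and -1.16), as did Gins1, Rrm2, Rfc5, Mcm3 and Fen1 (-1.65 to -1.14). The 1 µM replicate difference was negative in 35 of 39 members (median -0.92), and in CDKO cells at 5 µM the median was -0.18, with mean levels that overlapped (7.83 and 7.31 untreated, 7.59 and 7.11 at 5 µM). With each WT array left out in turn, 0 members passed and without either CDKO 1 µM array 21 did.

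Among 26 genes that control entry into S phase, E2f7, Skp2 and E2f8 fell and Cdkn2a rose, with 1 of 5 Skp2 probe sets of the opposite sign. E2f7, a repressor among the E2F factors, read 8.52 and 8.48 untreated and 5.09 and 5.16 treated (-3.37 ± 0.49, adjusted p = 0.0115). Cdkn2a, which encodes the inhibitors p16 and p19, read 3.45 and 3.78 untreated and 6.74 and 6.87 treated. It rose by 3.19 ± 0.48 from a level under 4, so the size is not a ratio of transcript amounts, and on the 6 CDKO arrays it read 8.34 to 10.73. Of 27 p53 targets 2 rose, against 3.75% of all genes tested. They were Pmaip1, which encodes the cell death protein Noxa (2.07 ± 0.50, limma adjusted p = 0.0435), and Perp (1.22). Mdm2, the ligase that degrades p53, differed by 1.06 ± 0.96 (adjusted p = 0.488). In the BCL2 family Bid rose by 1.22, and Bcl2, which protects from cell death, and Bcl2l11, which promotes it, fell (-2.61 and -2.42), which with Pmaip1 makes 4 of 15 members. In Bcl2l11 2 of 5 probe sets tested had the opposite sign. Whichever WT array was left out, none of these passed.

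Promoters of cell cycle genes are shown for 2 elements. The cell cycle homology region, TTTGAA on either strand, is the site of the DREAM and B-MYB complexes and stood in 21 of 28 mitosis promoters and in 20.2% of all genes. E2F sites (TTTGGCGC, TTTCCCGC or TTTCGCGC on either strand) stood in 14 of 34 DNA replication promoters and in 2.12% of all genes. Capitals mark these letters in Mki67 at chr7:135716442-135716525 on the - strand, Kif11 at chr19:37376333-37376381 on the + strand, Pola1 at chrX:93632256-93632323 on the - strand and Cdc6 at chr11:98907983-98908050 on the + strand (RefSeq, GRCm38.p6).
Mki67: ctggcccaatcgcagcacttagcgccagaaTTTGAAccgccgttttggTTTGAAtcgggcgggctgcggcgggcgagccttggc
Kif11: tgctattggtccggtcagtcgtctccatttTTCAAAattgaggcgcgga
Pola1: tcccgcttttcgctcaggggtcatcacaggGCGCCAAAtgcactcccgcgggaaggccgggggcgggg
Cdc6: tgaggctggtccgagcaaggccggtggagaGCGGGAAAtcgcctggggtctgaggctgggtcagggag

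Of 36 measured interferon-stimulated genes, 24 of which were tested, 7 were higher in treated WT cells and none was lower. A positive difference was seen in 35, with 12 members under 4 in both WT groups and a median of 0.61. Usp18, a protease that dampens interferon signalling, read 2.76 and 3.1 untreated and 8.43 and 8.48 treated, a difference of 5.52 ± 0.95 (adjusted p = 0.0178) from a level under 4. Bst2, which tethers budding virus, read 6.99 and 6.87 against 9.35 and 9.36. Irf9, a subunit of the factor that drives these genes, read 7.37 and 7.54 against 9.44 and 9.42. The treated arrays were higher in every case, in genes named because they passed the test. Rtp4 rose by 3.39, Xaf1 by 2.84, Oas1a, which also started under 4, by 2.15 and the GTPase gene Irgm1 by 2.11. Stat2, another subunit of that factor, read 4.15 and 4.26 against 7.96 and 7.80 and did not pass (adjusted p = 0.0769). The same members had a median of -0.42 in CDKO cells at 5 µM. Usp18 differed between the lines by 6.76 ± 1.35, which did not pass (adjusted p = 0.122). Between the 1 µM replicates Usp18 differed by 3.57, and the list median was 0.33. Without WT untreated replicate 1, 1 member passed and without any other WT array 0 did. With no filter on level 0 passed, and without either CDKO 5 µM array 4 did.

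A short interferon-stimulated response element, GAAANNGAA on either strand, stood in 14 of 26 promoters of the list and in 9.76% of all genes. It is the core bound by the factor that holds Irf9 and Stat2, and 2 rising genes in which it occurs as an overlapping pair are shown with the pair in capitals. Irgm1 lies at chr11:48871421-48871480 on the - strand and Oas1a at chr5:120907526-120907575 on the - strand (RefSeq, GRCm38.p6).
Irgm1: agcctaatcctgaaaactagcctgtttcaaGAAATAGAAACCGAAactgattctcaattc
Oas1a: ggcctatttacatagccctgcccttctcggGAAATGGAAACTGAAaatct

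Secreted factors and proteases changed in both directions. Of 40 chemokine and cytokine genes 24 were tested, and the other 16 were under 4 in both WT groups. Ccl8, Ccl7 and Ccl9 rose and Saa3, an acute phase apolipoprotein, fell from 8.02 and 7.79 to 3.86 and 3.83. The shares over all genes tested were 3.75% higher and 5.13% lower. Ccl7, which attracts monocytes, read 9.23 and 9.07 untreated and 11.58 and 11.70 treated, and Ccl8 3.13 and 3.15 against 9.18 and 9.25, from background. Il6 read 7.50 and 8.04 against 10.99 and 10.98 and did not pass (3.21 ± 0.87, adjusted p = 0.0574). In the 1 µM replicate difference the values were 3.43 for Ccl8, 1.67 for Ccl7 and 2.29 for Il6. Of 26 matrix proteases and inhibitors 21 were tested, 4 rose and 1 fell. Mmp3, a stromelysin, read 6.73 and 6.77 untreated and 9.94 and 9.98 treated (3.21 ± 0.24, limma adjusted p = 0.00114). Mmp10, the second stromelysin, read 5.39 and 5.51 against 10.12 and 9.98. In CDKO cells the differences at 5 µM were 2.77 for Mmp3 and 4.19 for Mmp10, with 1 µM replicate differences of 0.39 and 2.53. Mmp12 and the collagen-degrading cathepsin gene Ctsk also rose, by 1.59 and 1.06, and Adamts12 fell by 1.61. Saa3 and Mmp3 passed whichever WT array was left out, and the other genes named here passed in none of those fits.

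Among 37 lysosome and autophagy genes 5 rose, against 3.75% of all genes tested, and none fell, with a median of 0.44. Gpnmb, a glycoprotein of lysosomes and melanosomes, read 8.97 and 8.88 untreated and 12.18 and 12.14 treated (3.24 ± 0.22, adjusted p = 0.000765, 9.44-fold). Gla, the alpha-galactosidase that breaks down glycolipids, read 9.01 and 9.02 against 11.41 and 11.41. Both genes, named because they passed the test, were higher on each treated array. Atg7, which activates ubiquitin-like proteins for autophagy, and the cathepsin genes Ctsh and Ctsz rose by 1.25, 0.98 and 0.95. Gpnmb and Gla had 1 µM replicate differences of 0.16 and 1.15, and the CDKO difference at 5 µM was 2.04 and 2.02. Gpnmb passed whichever WT array was left out, and the other 4 passed in none of those fits.

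Of 28 NRF2 targets, genes of the response to oxidants, 25 were tested and 3 rose, against 3.75% of all genes tested. Nqo1, a quinone reductase, read 6.69 and 7.07 untreated and 8.48 and 8.76 treated, the aldo-keto reductase gene Akr1b8 rose by 1.35 and the epoxide hydrolase gene Ephx1 by 0.69. Hmox1, which degrades heme, read 9.80 and 9.81 against 12.14 and 12.34 and did not pass (adjusted p = 0.0696), with a 1 µM replicate difference of 1.98. Of 27 transporter and conjugation genes 16 were tested and 4 rose, among them Akr1b8 and Ephx1 again. Akr1c18, a steroid reductase, rose from 2.10 and 2.10 to 4.89 and 5.47, and the drug exporter gene Abcg2 rose by 0.77. The antioxidant response element TGACNNNGC stood in 9 of 23 NRF2 target promoters, against 14.0% of all genes, and in none of the 3 that rose. Of 38 genes of the unfolded protein and integrated stress responses 36 were tested, none rose and 3 fell, against 5.13% of all genes tested: the amino acid transporter gene Slc7a5 (-2.20), the disulfide isomerase gene Pdia6 (-1.12) and Dnajc3 (-0.99). Hspa5, the chaperone that senses unfolded protein, differed by -1.08 ± 0.29 (adjusted p = 0.0555). Whichever WT array was left out, none of these passed.

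Growth factor and morphogen genes that passed the test were lower, apart from Igfbp6. Over all genes tested 5.13% were called lower and 3.75% higher. In the TGF-beta and BMP pathways 28 of 33 members were tested, 6 fell and none rose. The median over all 33 was -0.62. Bmp4, a ligand, read 8.23 and 8.40 untreated and 4.69 and 5.19 treated, and Tgfb2, another ligand, read 10.02 and 9.69 against 7.19 and 7.12. The receptors Tgfbr1 (-1.35) and Bmpr2 (-1.31) fell, as did the inhibitors Smad6 (-2.31) and Skil (-1.09), the last with 1 of 2 probe sets of the opposite sign. In the Wnt pathway 20 of 33 members were tested and 3 fell. They were the secreted antagonist Sfrp2 (6.91 and 7.18 against 2.48 and 2.64) and the receptor Fzd4 (9.26 and 9.78 against 5.85 and 6.03). The third was the co-receptor Lrp6 (-2.67 ± 0.50, limma adjusted p = 0.0232). Of 15 IGF genes Igfbp6, a binding protein, rose by 1.19, and Igf1 differed by -2.63 ± 0.68 (adjusted p = 0.0519). The 1 µM replicate difference had medians of -0.12, -0.30 and -0.29 for the 3 lists. Whichever WT array was left out, none of the TGF-beta, BMP and IGF genes passed, nor did Sfrp2 or Lrp6, while Fzd4 passed in 1 of those 4 fits.

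The fibroblast identity of the cells was read from their markers. All 16 fibroblast markers were tested, with differences from -3.33 to 1.08 and a median of -0.36. By limma 4 of them had an unadjusted p under 0.05. Pdgfra, a receptor for platelet-derived growth factor, was the 1 member past the test. It read 8.44 and 8.54 untreated and 6.17 and 6.07 treated, with 1 of 3 probe sets of the opposite sign. On the 4 WT arrays alone 8 markers were lower, and the list median in CDKO cells at 5 µM was -0.62. Col3a1 read 14.22 and 14.30 against 12.93 and 12.94 and did not pass (adjusted p = 0.202). Of 43 extracellular matrix genes Mfap5, a microfibril protein, rose by 1.39 and none fell, although the median was -0.66. Eln, the gene of elastin, read 7.13 and 7.23 against 3.13 and 3.16 and did not pass (-4.03 ± 1.58, adjusted p = 0.131), with a 1 µM replicate difference of -4.77. Of 26 actin and contractile genes none passed by limma, with 5 at an unadjusted p under 0.05. The 26 ribosomal protein genes differed by -0.28 to 0.35, and none passed by limma, with 0 at an unadjusted p under 0.05. Of 13 housekeeping genes Ywhaz rose by 1.00, with 3 of 7 probe sets of the opposite sign.

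Several transcripts of other cell types were high on the untreated WT arrays and under 4 on the treated ones. Sftpc, a lung surfactant protein, read 9.17 and 9.32 untreated and 2.20 and 2.20 treated. Krt8, a keratin of simple epithelia, read 8.59 and 9.04 against 2.97 and 2.98. Ibsp, a bone matrix protein, read 8.40 and 8.68 against 2.72 and 2.78. On the 6 CDKO arrays these genes read 2.17 to 2.76, 2.92 to 3.15 and 2.66 to 2.75, so the untreated WT arrays alone were high. Scgb1a1, of airway club cells, fell from 4.21 and 5.08 to 2.63 and 2.65, and the adhesion gene Cdh1 from 6.78 and 6.34 to 3.19 and 3.18. Of 12 lung epithelium markers 9 were under 4 in both WT groups, as were 18 of 28 epithelium and 9 of 10 bone markers. In the epithelium list 2 members were lower and 1 was higher, with differences from -5.84 to 1.22. Adipoq, the adipocyte hormone adiponectin, fell from 4.08 and 4.20 to 2.23 and 2.18.

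Skeletal muscle markers were the largest such group, with 7 of 22 lower and 1 higher. The myosin genes Myl1 and Myh3 read 7.82 and 7.16, and 6.64 and 6.75, untreated and 3.20 and 3.20, and 3.28 and 3.42, treated. Actc1, the cardiac and embryonic muscle actin, read 6.68 and 6.90 against 3.51 and 3.53. Tnni1 and Tnnt1, troponins of slow muscle, fell (-3.12 and -2.38), as did Tnnc1 (9.01 and 8.70 against 6.01 and 6.29) and Mylpf (7.39 and 7.18 against 5.00 and 5.01), which stayed above 4 on the treated and the CDKO arrays. In these 7 genes both untreated WT arrays lay above every treated WT array and every CDKO array. Acta1, the skeletal muscle actin, went the other way (11.16 and 10.99 untreated, 13.00 and 13.00 treated, adjusted p = 0.0427). The list median was -0.14, and 13 of 22 members were under 4 in both WT groups. For the 7 lower genes the 1 µM replicate difference was between -0.99 and 0.21, with a list median of 0.01. Without 1 WT array 4 or 5 of the 7 passed, and with the 18S control as a covariate 2 did.

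**Figure D4:**
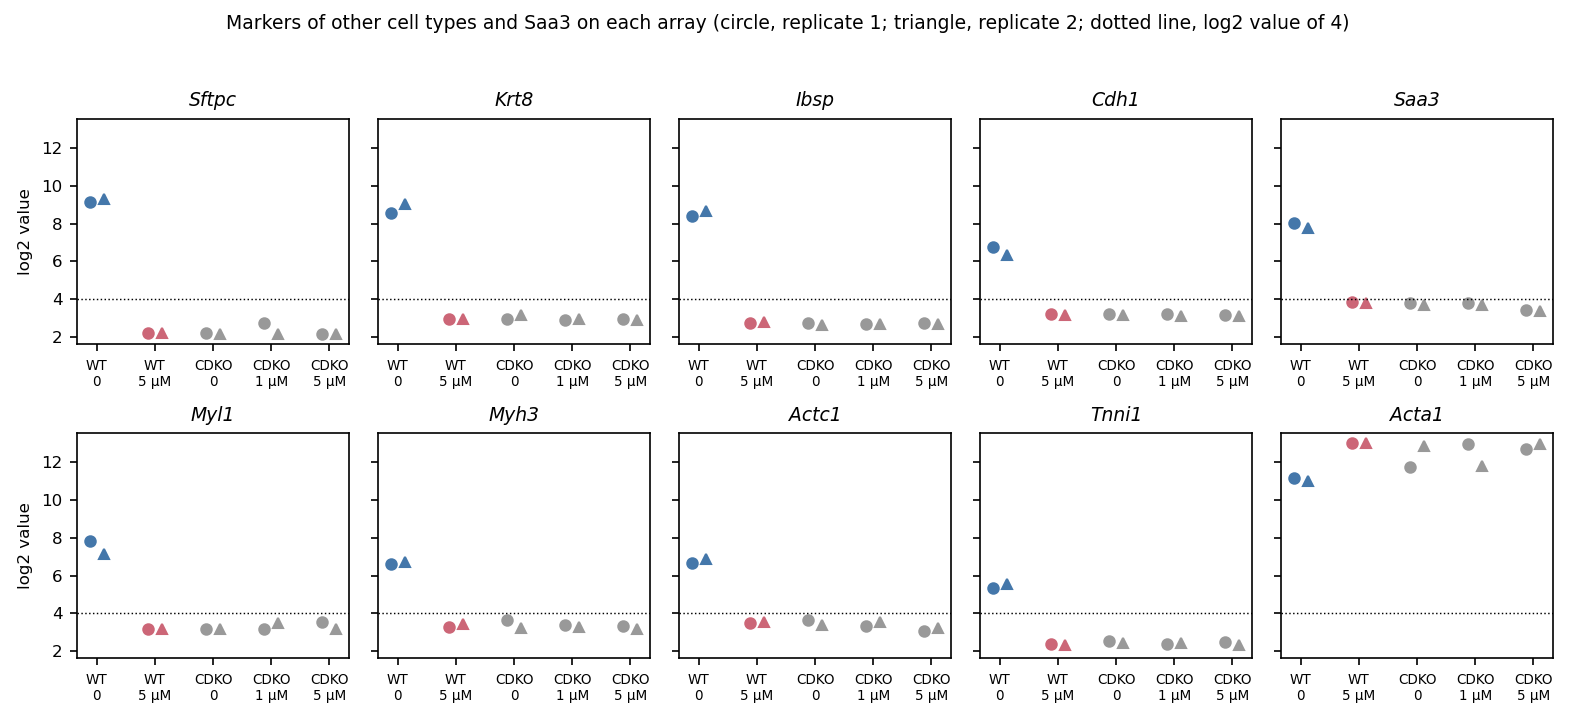
Log2 values of 9 markers of other cell types and of Saa3 on each of the 10 arrays, by line and dose (0, untreated). Circles are replicate 1 and triangles replicate 2, blue for untreated WT, red for treated WT and grey for CDKO cells, and the dotted line marks a log2 value of 4. All but Acta1 are high on the untreated WT arrays alone, for example Sftpc at 9.17 and 9.32 against 2.17 to 2.76 on the other 8. Acta1 is lowest on those 2 arrays.

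Markers of blood cells did not follow that pattern. None of 23 macrophage and leukocyte markers passed by limma, with 4 at an unadjusted p under 0.05, and their median was -0.10. Cd68, a lysosomal protein of macrophages, read 7.41 and 7.38 untreated and 9.69 and 9.64 treated (2.27 ± 0.65, adjusted p = 0.0663), with a 1 µM replicate difference of 1.21. Mcpt8, a protease of basophils and mast cells, rose from 7.67 and 7.45 to 11.63 and 11.63, while the 11 other mast cell markers were under 4 in both WT groups. Endothelial Emcn rose from 4.20 and 4.25 to 5.17 and 5.33, with 12 of 15 endothelium markers under 4. All 6 erythroid markers were under 4 in both groups.

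A test of whether the lines responded differently to 5 µM passed for 33 genes (0.316% of those tested), 8 with a more positive and 25 with a more negative change in WT cells. Of these, 31 had also passed in WT cells. The filter on level used the WT means only, so genes expressed in CDKO cells alone were not tested, and Sftpc, Krt8 and Ibsp entered the test through the untreated WT arrays. The 8, the 25 and the 31 are in part set by that filter. Sftpc (-7.03 ± 0.32, adjusted p = 0.000291), Ibsp (-5.79 ± 0.26, adjusted p = 0.000291) and Krt8 (-5.71 ± 0.30, adjusted p = 0.000564) had the largest such differences. Gprin3, Saa3, Hp, Cdh1, Upk3b and the muscle genes Myl1, Myh3, Tnni1 and Actc1 were also among the 25, and Hp, the plasma protein haptoglobin, read 6.80 and 5.63 untreated and 2.83 and 2.82 treated. All 12 of these genes were under 4 on all 6 CDKO arrays, treated or not, so a fall in that line could not be read.

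The 8 genes with a more positive change in WT cells included a gap junction gene and enzyme genes. Gjb2, a gap junction protein, read 7.05 and 6.96 untreated and 9.45 and 9.31 treated in WT cells, and 7.79 to 8.15 on the 6 CDKO arrays (2.31 ± 0.30, adjusted p = 0.0296). Spr, which makes the cofactor tetrahydrobiopterin, read 6.70 and 7.04 against 8.94 and 9.10, and 9.31 to 9.62 on the CDKO arrays. Hal, a histidine-degrading enzyme, read 2.31 and 2.30 against 5.39 and 5.15, and 2.12 to 2.18 on the CDKO arrays. Treated WT cells thus passed the CDKO level for Gjb2 and stayed under it for Spr. Hal and Angptl7 were under 4 on the untreated WT and all 6 CDKO arrays. Both entered the test through the treated WT arrays. Angptl7, C1ql3, Hoatz and Pdlim2 differed between the lines by 3.102, 2.178, 2.175 and 2.126. Abcc4, a drug exporter, read 7.07 and 7.17 against 6.61 and 6.55 in WT cells and 6.77 and 7.47 against 9.73 and 9.83 in CDKO cells, a difference between the lines of -3.19 ± 0.36 (adjusted p = 0.0198). Sftpc, Ibsp, Krt8 and Gprin3 passed whichever array was left out, and without 1 of the 8 arrays of these 4 groups between 4 and 24 genes in all did, against 91 without either CDKO 1 µM array.

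**Figure D5:**
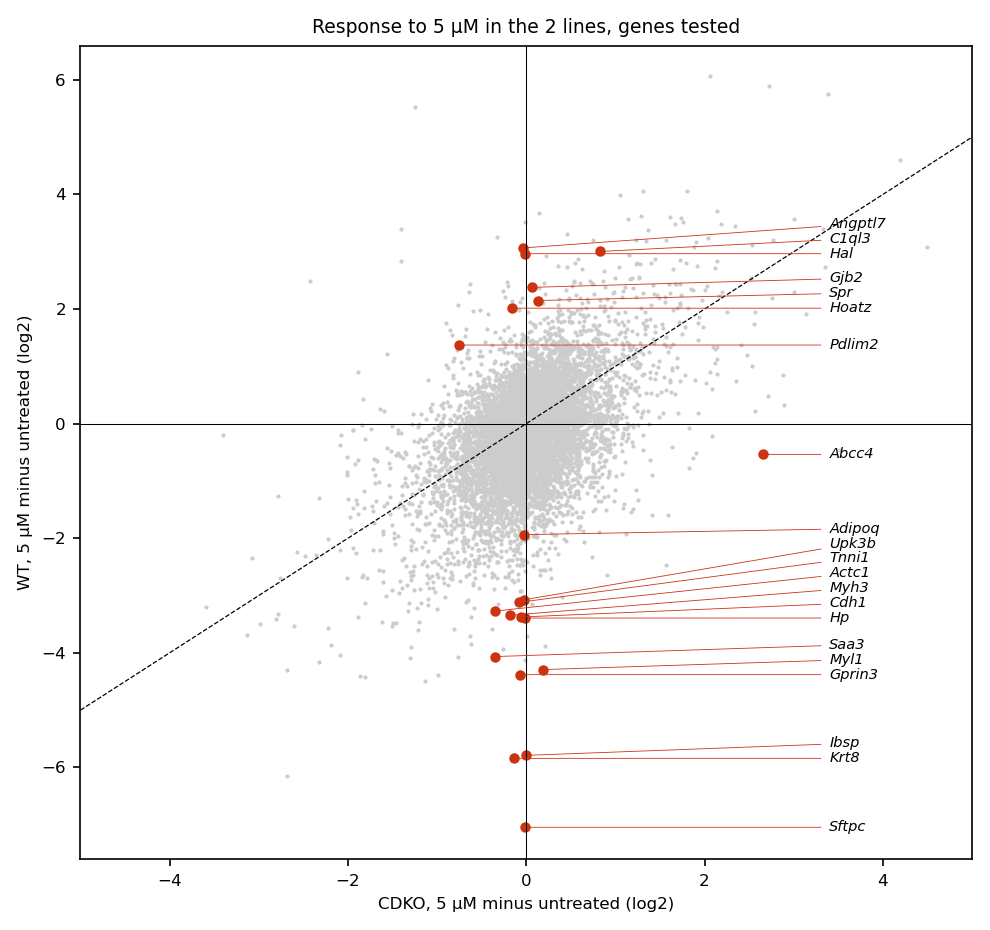
Difference at 5 µM against untreated in WT cells (vertical, log2) and in CDKO cells (horizontal, log2) for the 10440 genes tested, in grey. Red points are the 21 named genes whose difference between the lines passed the test, and the dashed line marks equal change. Most red points lie near 0 for CDKO cells, from Sftpc at -7.04 to Angptl7 at 3.07 in WT cells, and Abcc4 lies right of the others.

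Over all genes the 2 responses shared a direction in part. Of the 391 genes higher in WT cells 327 had a positive CDKO difference at 5 µM (median 0.49), and of the 536 lower genes 409 had a negative one (median -0.21). Of all genes tested 48.7% had a positive CDKO difference, and 6 probe sets passed the test of that difference. Across the 10440 genes the 2 differences correlated at r = 0.493, and the points share the platform and the normalization but no array. The 1 µM replicate difference had the sign of the WT change in 265 of the 391 and 462 of the 536, with 67.7% of all genes tested below 0.

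Genes of the microRNA pathway and of steroid receptors were read because the series is about Dicer and an estrogen receptor ligand. Of 18 microRNA machinery genes 15 were tested and 3 fell. They were Tnrc6c (-2.33) and Tnrc6a (-1.62), scaffold proteins that link Argonaute to the deadenylases, and Tut4 (-1.77), which adds uridines to RNA ends. Dicer1 read 8.97 and 9.10 untreated and 7.64 and 7.19 treated and did not pass on the probe set with the highest mean (adjusted p = 0.226). On that probe set the 1 µM replicate difference was -2.90, and CDKO 1 µM replicate 2 read 8.30, above the untreated CDKO arrays at 7.09 and 5.99. Its second probe set read 7.31 and 7.16 against 5.90 and 5.94 and fell by 1.32 ± 0.26 (adjusted p = 0.0253). Esr1, which encodes estrogen receptor alpha, did not reach the limit for testing, and its strongest probe set read 4.57 and 2.63 untreated and 4.54 and 3.05 treated in WT cells and 8.66 to 9.90 on the 6 CDKO arrays. Nrip1, a corepressor of nuclear receptors, fell by 1.13, the 1 of 14 receptor and coregulator genes to pass. Of these 14 genes 7 were tested. Over all genes tested 5.13% were called lower. Whichever WT array was left out, none of the microRNA and receptor genes passed on the probe sets with the highest mean.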

How the data were processed

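The deposited values are log2 intensities of Affymetrix mouse arrays on 45101 probe sets, and GCRMA, a background correction and normalization across arrays, is named in the submitters' processing notes without a version. No scanner files were used here, and counts, depth and a genome build of the values do not apply. The 64 array controls were left out, and probe sets with a mean of 4 or more in either WT group were kept. limma 3.58.1 in R 4.3.3 fitted 5 group means over all 10 arrays, so that the groups share 1 estimate of the spread, and p-values were adjusted over the 20044 probe sets kept by the method of Benjamini and Hochberg, with a threshold of 0.05. The number of arrays limits the precision.

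Of the 45037 probe sets, 34945 had 1 gene symbol in GEO's platform annotation, 932 had several and 9160 had none. 34741 of those with 1 symbol were found in RefSeq. The members of the 48 gene lists and the rule for named genes were chosen with earlier results of these data known. Named were up to 15 genes in each direction with the largest difference measured in both groups and up to 10 with 1 group under 4, list members past the test with up to 3 others per list, up to 10 in each direction that differed between the lines, and fixed controls and markers; Abcc4, Adipoq, Pola1 and the other members of lists came in through their lists. The replicate numbers were not taken to pair the samples, since correlations of replicate differences over probe sets ran from -0.453 to 0.44 between groups, -0.0185 for the 2 WT groups. On data simulated for the WT comparison over 20044 probe sets, the fit recovered 8% of changes of 1 (log2) and 60% of 2. It recovered 74% of 3 and 92% of 4, and 7 of 124 calls were of unchanged probe sets. The simulation set 50 changes of each size and left all other probe sets equal between the WT groups. Its WT arrays had the spread pooled over all groups, wider than between the WT replicates. In the data 6329 probe sets had an unadjusted p under 0.05 by limma. These rates are therefore not those of the WT comparison itself. Alternatives were other filters, normalizations, probe set choices and spread estimates, covariates, a replicate block and leaving out each array. An added alternative, chosen after seeing the data, counted list members with the 18S control as a covariate.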

Additional observations from a re-analysis of the deposited data

Results flagged for a closer look

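The response to 5 µM differed between WT and CDKO cells, by limma's test of that difference, in 21 genes named here. It was more negative in WT cells for Sftpc (-7.03), Ibsp (-5.79), Krt8 (-5.71), Myl1 (-4.48), Gprin3 (-4.32), Saa3 (-3.72), Hp (-3.38), Cdh1 (-3.31) and Abcc4 (-3.19). The same held for Myh3 (-3.16), Upk3b (-3.05), Tnni1 (-3.04), Actc1 (-2.92) and Adipoq (-1.91). All of these more negative genes but Abcc4 were under 4 on all 6 CDKO arrays. A fall in CDKO cells could not be read for them, so their values follow from high levels on the untreated WT arrays alone. It was more positive in WT cells for Angptl7 (3.102), Hal (2.98), Gjb2 (2.31), C1ql3 (2.18), Hoatz (2.17), Pdlim2 (2.13) and Spr (2.02). Angptl7 and Hal were under 4 on the untreated WT and all 6 CDKO arrays. Each value is the log2 change in WT cells minus that in CDKO cells. Gprin3, Ibsp, Krt8, Saa3 and Sftpc also passed with the 18S control as a covariate, and the other 16 did not.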

How the results depend on the processing

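The WT comparison rests on 2 arrays a group, and drug, 18S control and any difference between the cultures cannot be told apart. Each cause of a moved count below was not tested. Genes higher in WT cells numbered 391 and lower 536. With the 18S covariate they were 2 and 8, on the 4 WT arrays alone 2347 and 3516, there with a replicate block 1925 and 3065, with array weights 2584 and 3721, with a minimum change of 1 10 and 24, and with a replicate block over all arrays 241 and 298. With no filter 311 were lower. Leaving out 1 array gave 11 to 786 higher and 18 to 1314 lower genes. The 33 genes that differed between the lines became 5 with the 18S covariate, 91 on the 8 arrays of the 4 groups, 12 with a filter at 6, 9 with a minimum change of 1, 73 with no filter, 16 with a replicate block and 4 to 91 without 1 array.

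With the 18S covariate, limma called 0 members higher in the mevalonate list, 0 in the post-lanosterol list, 1 in hypoxia, 0 in the interferon list, 0 lower in mitosis, 0 in DNA replication and 2 in skeletal muscle, while 641 genes were higher and 317 lower at an unadjusted p under 0.05. On the WT arrays alone the counts were 27 for hypoxia, 17 for interferon, 34 for mitosis and 29 for DNA replication, and with array weights 28, 18, 34 and 31. With a replicate block they were 6, 4, 4 and 5. With no filter 3 post-lanosterol, 0 interferon, 3 mitosis and 3 DNA replication members passed. Without 1 array the counts were 0 to 9 for mevalonate, 0 to 7 for post-lanosterol, 0 to 16 for hypoxia, 0 to 9 for interferon, 0 to 29 for mitosis, 0 to 21 for DNA replication and 4 to 8 for muscle. List medians were computed only under centring, quantile normalization, another probe set choice and without 1 WT array. Under quantile normalization they were 1.62 for post-lanosterol, -1.97 for mitosis, -1.27 for DNA replication, 0.71 for interferon and 0.85 for hypoxia. Without 1 array they were 1.32 to 1.51 for mevalonate, 1.67 to 1.72 for post-lanosterol, -2.10 to -2.01 for mitosis, -1.33 to -1.28 for DNA replication, 0.50 to 0.67 for interferon, 0.86 to 0.90 for hypoxia and -0.35 to 0.012 for muscle, which changed sign. Dicer1 turned from -1.62 to 0.87 with the 18S covariate, passing in neither. Of 60 named genes 48 kept their call with the replicate block, 8 with the 18S covariate and 17 to 24 without a WT array.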

Other observations

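Genes that pattern the embryo along its axes were read as a sign of where in the body the fibroblasts came from. Of 37 Hox and T-box genes measured 30 were tested, none rose and 2 fell, against 5.13% of all genes tested. Tbx3, a T-box factor of limb and heart, read 7.10 and 6.70 untreated and 5.61 and 6.11 treated (-1.04 ± 0.24, limma adjusted p = 0.0402), and Tbx2 read 4.27 and 5.04 against 2.84 and 2.85. Of 23 imprinted genes, which are read from 1 parental copy, the amino acid transporter gene Slc38a4 fell from 10.04 and 9.87 to 7.94 and 7.79. Mest read 7.28 and 7.41 against 3.46 and 3.86 and did not pass (adjusted p = 0.0532). Among 27 immediate early genes Hbegf, a ligand of the epidermal growth factor receptor, fell by 0.97. Dusp4, a phosphatase of MAP kinases, differed by 1.76 ± 0.49 (adjusted p = 0.0615).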
